A study of Mus musculus with 12 samples.

Results

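The dorsal hippocampus of mice that lost Tet3 in adult forebrain neurons was compared with that of control mice, by 3′ end sequencing of messenger RNA. The series holds 12 samples from 2 hippocampal regions. The 6 dorsal samples were taken by region and genotype, 3 labelled cKO (numbers 40, 43 and 64 in the titles) and 3 labelled control (41, 49 and 71). The cKO mice were Tet3 fl/fl, on C57BL/6N, and heterozygous for Camk2a-CreERT2, a tamoxifen-inducible Cre recombinase driven by the Camk2a promoter from a B6;129S6 line. Control mice were Tet3 fl/fl with no Cre, so both groups carried the floxed allele and the groups also differed by the Cre transgene. The labels give the same tamoxifen course for every sample: 50 mg/kg from 6 weeks of age, 2 injections per day for 5 days, a break of 7 days, then 5 more days. All animals are labelled adult, and the time from the last injection to dissection is not given in the sources used here.

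TET3 oxidises 5-methylcytosine in DNA, mainly where a C is followed by a G (a CpG), which is a step towards removing the methyl mark. Neurons no longer divide, so in them a methyl mark is not diluted by replication and its loss relies on such enzymes. The Camk2a promoter is active in excitatory forebrain neurons, among them the pyramidal cells of CA1, CA2 and CA3 and the granule cells of the dentate gyrus. Inhibitory neurons, glia and vessel cells are not targets of this promoter, and their RNA is in the tissue as well. In bulk tissue of this kind, fewer cells of a type and less RNA per cell cannot be told apart.

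Total counts were 8.976 to 9.297 M in the controls and 5.117 to 11.399 M in the cKO samples, of which cKO 64 was the shallowest, with 1 of its 3 sequencing runs excluded. The defining transcripts of hippocampal tissue were present: Slc17a7, the vesicular glutamate transporter of excitatory neurons, was at 1121 to 1725 CPM (counts scaled to a common library size by TMM), Gad1 of inhibitory neurons at 102.5 to 118.1 CPM and the myelin gene Mbp at 3246 to 4076 CPM in the 6 samples. Control 49 and cKO 64 stood apart from the other dorsal samples. Both held much RNA of the choroid plexus, the ventricular epithelium beside the hippocampus. Its marker Ttr was at 3384 CPM in control 49 and 1940 CPM in cKO 64, against 41.33 to 157.6 CPM in the other 4. On the first principal component (led by choroid plexus genes) these 2 samples lay at 15 and 30.3 and the other 4 between -19.4 and -3.2, and the genotypes were not parted. Immunoglobulin transcripts followed the same pair: Igha was at 9.775 CPM in control 49, 5.536 CPM in cKO 64 and 0.2625 to 1.024 CPM in the rest. The 2 samples belong to different groups, and counts of calls without them are given below. The labels do not say that the samples of a group are separate animals, so p-values measure the spread between these samples.

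No dorsal gene passed the main test. By edgeR's quasi-likelihood test, 0 of 15692 genes were called at a Benjamini-Hochberg adjusted p under 0.05 (percent called 0.0, with the lowest adjusted p at 0.582), and limma-voom called 0 as well (percent called 0.0). At an unadjusted p under 0.05, edgeR held 434 genes lower in cKO (2.77%) and 335 higher (2.13%), 4.9% in all, and limma-voom 779 (4.96%). Every cKO sample was below every control in 765 genes (4.88%) and above in 844 (5.38%). By that count 47.5% of the non-overlapping genes were lower. When levels were scaled by library totals in place of TMM it was 31.2% (556 lower, 1225 higher). On the same counts DESeq2 gave an adjusted p to 5042 genes, and called 22 of them lower (0.436%) and 0 higher (0.0). The other 10650 genes got no adjusted p and could not be called in either direction. Without control 49, edgeR called 25 genes, 24 lower, of which 16 were among these 22. Without both control 49 and cKO 64 it called 10, all lower, 6 of them among the 22, and DESeq2, in a setting chosen after seeing the data, called 30 with 18 shared.

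Tet3, on the minus strand of chromosome 6 (83362373 to 83459084, GRCm38), was at 29.82, 37.47 and 33.9 CPM in controls 41, 49 and 71 and at 32.38, 41.7 and 40.85 CPM in cKO 40, 43 and 64, the order in which values per sample are given throughout. The groups overlapped. The sources used here do not place the floxed exons, and reads from the 3′ end would still be counted if those exons lie elsewhere, so this level checks nothing about the deletion. Dnmt1, the maintenance methyltransferase, was at 73.51 ± 4.67 CPM among controls, against 64.64 ± 7.98 CPM among cKO samples (SD, n = 3), again with overlap. Of 24 tested genes of DNA methylation and demethylation, 11 were lower and 13 higher in cKO (median log2 fold change 0.01). Only Cxxc5, which binds unmethylated CpG, and Gadd45b, a stress-induced gene linked to demethylation, had an unadjusted p under 0.05 and groups that did not overlap, both higher, where 2.13% and 5.38% of all genes were higher by these measures. Cxxc5 was at 38.59 ± 0.634 CPM in control and 48.31 ± 7.84 CPM in cKO samples (SD, n = 3). Gadd45b was at 6.374, 10.86 and 8.531 CPM in the 3 controls, with 11.03, 11.41 and 12.41 CPM in the 3 cKO samples. Its highest control, 49, was close to its lowest cKO sample.

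Lrpprc had the lowest p in the dorsal hippocampus. Its product binds the messenger RNAs of the mitochondrial genome and keeps them stable. It was at 234.5, 200.5 and 264.1 CPM in controls 41, 49 and 71 and at 164.3, 157.9 and 132.5 CPM in cKO 40, 43 and 64. All 3 cKO samples were below all controls, with control 49 the nearest to them. The log2 fold change was -0.62 ± 0.11 (SE) and the edgeR adjusted p 0.582, against 0.000673 with DESeq2. Over all 20 settings its log2 fold change stayed between -0.74 and -0.51, while its adjusted p ranged from 5.59e-07 to 1.0. With run 1 alone Lrpprc was the single gene that edgeR called (adjusted p 0.0445).

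The 22 genes that DESeq2 called had dorsal log2 fold changes of -0.65 to -0.39 (median -0.48, a level of 0.719 times the control). Their known roles are given here as background, with no test of a shared role. 4 are transcripts of the mitochondrial genome (mt-Nd2, mt-Nd4, mt-Nd5 and mt-Co1), described below. Tef, a clock-controlled factor of the PAR bZIP family, and Usf2, a helix-loop-helix factor, act in transcription, and Mir124a-1hg is the host transcript of the neuronal microRNA miR-124. Others act at synapses and in signalling: Vamp2, the synaptic vesicle SNARE protein; Clstn3, a synaptic adhesion protein; Ephb3, an ephrin receptor; and Rasd1, a glucocorticoid-induced small G protein. Still others act in protein and lipid modification: St3gal5, which makes the ganglioside GM3; Ube2m, which conjugates the ubiquitin-like protein NEDD8; and the ubiquitin ligase Rnf157. Mt3, the brain metallothionein, which binds zinc, Mcam, an adhesion molecule of vessel walls, Fam131a and Ociad2 were also among them. The other 3, 5330406M23Rik, Gm47135 and Gm8292, are predicted genes or pseudogenes whose reads may belong to other genes, and they are uncertain.

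Usf2 was at 706.4, 556.7 and 701.9 CPM across the controls and 509, 450.5 and 343.2 CPM across the cKO samples. Its groups did not overlap, and cKO 64 was the lowest. Tef was at 713.8, 647.7 and 781.6 CPM against 541.9, 550.8 and 501.8 CPM, again without overlap. St3gal5 was at 343.9, 267.3 and 365.5 CPM against 247.9, 208.5 and 173.3 CPM, with control 49 only a little above cKO 40. Mt3 was at 203.4, 166.5 and 218.3 CPM against 154.9, 134.7 and 134.8 CPM. For Mt3 too the groups were apart and control 49 was the lowest control. Vamp2 was at 842.5, 675.7 and 1066 CPM against 628.2, 608.5 and 625.1 CPM. Its controls spread widely (SD 196 CPM) and its cKO samples lay close together (SD 10.6 CPM). Without control 71 its log2 fold change moved from -0.47 to -0.29.

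**Figure D1:**
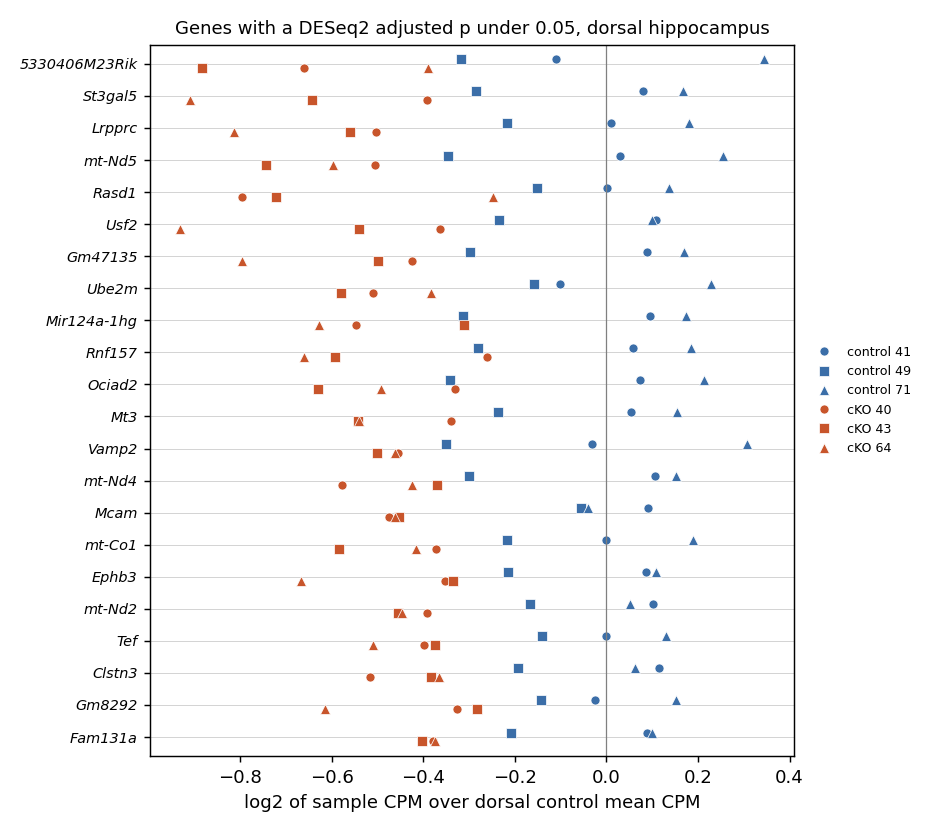
Level of each of the 22 genes in each dorsal sample, as log2 of its CPM over the mean CPM of the 3 controls (blue controls, orange cKO, 1 marker shape per sample). The cKO samples lie to the left, and control 49 (blue squares) is the control nearest to them in 22 of 22 genes.

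Mcam had little spread within groups, at 90.26, 81.46 and 82.43 CPM among controls, against 60.91, 61.9 and 61.46 CPM among cKO samples. Leaving out any 1 sample kept its log2 fold change between -0.50 and -0.42. The summed level of 15 tested endothelial markers was 635.3 to 704 CPM in the 3 controls, with 593.8 to 614.9 CPM in the 3 cKO samples (12 of 15 lower, median -0.12), and that of 12 mural cell markers 472 to 515 CPM against 411.5 to 462.7 CPM (7 of 12 lower). Mcam is itself in the mural list, whose mean over members overlapped between groups (-0.20, 0.13 and 0.07 in the controls, 0.0, -0.14 and 0.01 in the cKO samples, log2). No marker of either list was at 0, and the part of vessel RNA in the Mcam difference was not tested. Among endothelial markers, Egfl7, a secreted vessel factor, was at 67.01 ± 2.19 CPM across the controls and 53 ± 4.2 CPM across the cKO samples (SD, n = 3).

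Of the 22 genes, 19 had groups that did not overlap, the exceptions being Rnf157, Mir124a-1hg and Ociad2, in which control 49 reached the cKO range. The genes were picked on this contrast, so these counts describe them and support nothing. All 22 were lower in each of the 3 sequencing runs taken alone (run 2 without cKO 64), where 23.7% of all genes were, and kept their sign with each sample left out. Control 49 was the lowest of the controls in 22 of 22 genes, against 34.9% of all genes. As a mean over the 22 genes, relative to the dorsal controls, the samples lay at 0.05 (control 41), -0.22 (control 49), 0.17 (control 71), -0.44 (cKO 40), -0.50 (cKO 43) and -0.54 (cKO 64) on the log2 scale. These genes varied together from sample to sample, so they are not 22 independent observations. The choroid plexus markers, which set control 49 and cKO 64 apart, had summed levels of 298.2 to 5107 CPM among controls, against 396.2 to 3184 CPM among cKO samples, with 0 of 15 tested markers non-overlapping and none at 0. Their part in the low values of control 49 was not tested. Without both samples, 6 of the 22 were among the 10 genes that edgeR called.

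The start regions of 3 genes are shown because CpG sites are what TET3 acts on: Lrpprc and Mt3, lower in cKO, and Bok, the gene of lowest p among those higher in cKO. Each window runs from 250 bases before to 50 bases after the RefSeq start on GRCm38.p6, read 5′ to 3′ on the gene's strand, with each CpG in capitals. They are chr17:84790737-84791036 on the minus strand for Lrpprc, with 24 CpG sites, chr8:94152357-94152656 on the plus strand for Mt3, with 8, and chr1:93685325-93685624 on the plus strand for Bok, with 16.
Lrpprc: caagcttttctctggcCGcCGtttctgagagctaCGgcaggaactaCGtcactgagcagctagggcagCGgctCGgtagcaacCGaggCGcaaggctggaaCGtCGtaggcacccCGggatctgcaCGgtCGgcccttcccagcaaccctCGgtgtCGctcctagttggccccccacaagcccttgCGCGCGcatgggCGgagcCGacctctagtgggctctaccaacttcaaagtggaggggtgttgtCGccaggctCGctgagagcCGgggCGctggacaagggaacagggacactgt
Mt3: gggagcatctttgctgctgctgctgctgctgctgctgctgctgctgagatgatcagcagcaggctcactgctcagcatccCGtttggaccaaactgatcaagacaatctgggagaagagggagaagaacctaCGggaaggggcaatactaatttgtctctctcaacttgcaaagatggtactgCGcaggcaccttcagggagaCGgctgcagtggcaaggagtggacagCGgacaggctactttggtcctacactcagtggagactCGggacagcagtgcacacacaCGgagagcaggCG
Bok: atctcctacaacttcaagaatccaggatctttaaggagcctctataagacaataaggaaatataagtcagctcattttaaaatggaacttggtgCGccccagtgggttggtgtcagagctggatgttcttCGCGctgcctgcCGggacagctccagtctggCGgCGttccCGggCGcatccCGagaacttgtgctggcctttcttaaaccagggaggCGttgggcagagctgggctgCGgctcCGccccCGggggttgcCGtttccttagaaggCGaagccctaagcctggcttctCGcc
Of the 22 genes 11 were matched by symbol to the RefSeq table, with 15 start windows and a median of 24 CpG sites per window (range 4 to 48). Over all genes tested, 10752 matched, with 13844 windows and a median of 20, and 7 of the 15 lowest-p higher genes gave 10 windows with a median of 15.5. Methylation itself was not measured here, and these counts describe the reference sequence.

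Among the gene lists described here with more than 2 members, the messenger RNAs of the mitochondrial genome had the largest share of members at an unadjusted p under 0.05. This genome encodes 13 proteins of the respiratory chain, 2 ribosomal RNAs and 22 transfer RNAs. All 13 messenger RNAs were lower in cKO (median log2 fold change -0.46), 10 at an unadjusted p under 0.05 and 9 with groups that did not overlap, where 2.77% and 4.88% of all genes were lower by these measures. Both ribosomal RNAs were lower too, and 11 of 13 tested transfer RNAs, of which 1 had an unadjusted p under 0.05. The summed level of the transfer RNAs overlapped, at 122.8 to 133.5 CPM among controls and 91.05 to 140.2 CPM among cKO samples. The RNAs of this genome are made from shared long precursors, so their values are not independent. Mitochondrial transcripts took 4.708, 4.019 and 4.829% of counts in controls 41, 49 and 71 and 3.642, 3.702 and 3.812% in cKO 40, 43 and 64. All 3 controls were above all 3 cKO samples.

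The complex I subunit mt-Nd5 was at 790.4, 609.3 and 923.2 CPM in the 3 controls, with 545.3, 462.6 and 511.9 CPM in the 3 cKO samples. mt-Nd2, of the same complex, was at 2068, 1716 and 1996 CPM against 1468, 1405 and 1413 CPM, with a spread among the cKO samples of 34 CPM (SD). mt-Co1, of cytochrome oxidase, was at 848.1, 730.3 and 968.4 CPM against 655.5, 566.3 and 636 CPM. In all 3 the groups were apart and control 49 was the lowest control. mt-Cytb, of complex III, chosen after its values were seen, was at 8477, 6395 and 10300 CPM against 6286, 5376 and 6566 CPM. There cKO 64 was above control 49, so its groups overlapped. The ribosomal RNAs had smaller differences in proportion: mt-Rnr2 was at 18870 ± 1160 CPM across the controls and 16660 ± 852 CPM across the cKO samples (SD, n = 3), and mt-Rnr1 at 4734 ± 399 against 3933 ± 151 CPM.

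Some of these transcripts depended on the sequencing run. Scaled by run totals, mt-Co3 was at 124.2 to 142.6 CPM in the controls in run 1 and at 9.944 to 12.6 CPM in run 3, and mt-Atp6 at 208.2 to 221.6 CPM in run 1 and 34.6 to 37.5 CPM in run 3. Of all genes tested, 41 of 15692 genes (0.26%) were more than 2-fold lower in run 3 than in run 1 in every sample. Run 3 gave 75.3% of the counts of cKO 64 and 37.6 to 45.9% of those of the other dorsal samples. Within runs, the log2 fold change of mt-Co3 was -0.13 in run 1, -0.26 in run 2 (without cKO 64) and 0.01 in run 3, against -0.27 ± 0.12 (SE) with runs summed, so its lower level did not hold within each run. With runs 1 and 3 summed it was 0.02. For mt-Atp6 the cKO samples were at 144.1 to 199.7 CPM in run 1, below all controls. In run 3 they were at 25.81 to 44.84 CPM, on both sides of the controls. For mt-Nd5 the single runs gave -0.60, -0.62 and -0.60, and for mt-Nd2 -0.40, -0.45 and -0.41.

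**Figure D2:**
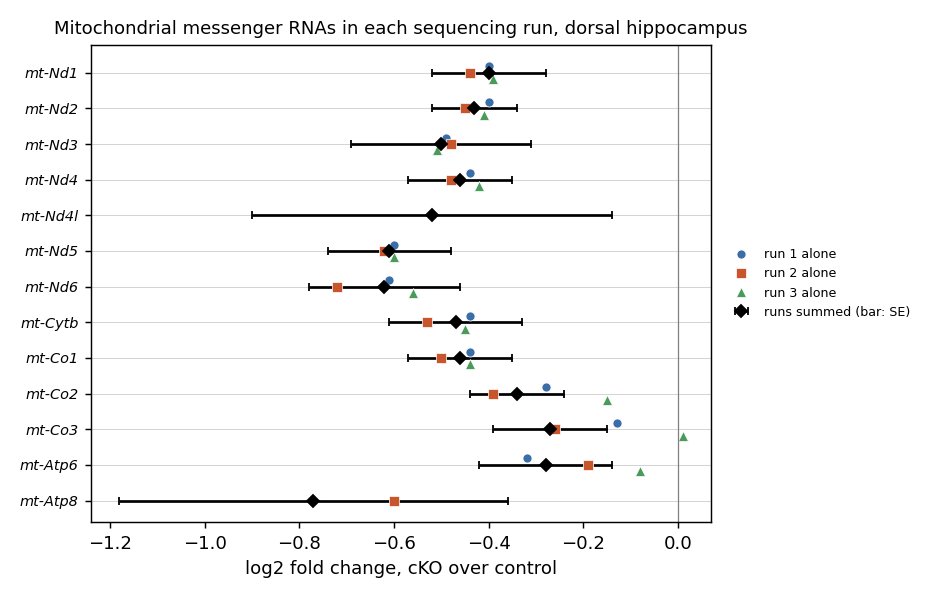
Log2 fold change (cKO over control) of the 13 mitochondrial messenger RNAs with runs summed (black diamonds, bars are the SE) and in each run alone (run 2 has no cKO 64). Most lie near their summed value in every run, while mt-Co3 reaches 0.01 in run 3; mt-Nd4l and mt-Atp8 were too low to be tested in some or all single runs.

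Nuclear gene lists of mitochondria and of protein synthesis had medians closer to 0. Of 26 tested genes of mitochondrial transcription and RNA handling, 14 were lower and 12 higher (median -0.03, and 0.01 without cKO 40). Beside Lrpprc only Ssbp1, the mitochondrial single-stranded DNA-binding protein, had an unadjusted p under 0.05, at 62.03, 59.84 and 75.56 CPM among controls, against 59.68, 46 and 52.11 CPM among cKO samples. Its highest cKO sample was next to its lowest control. Of 77 tested nuclear subunits of oxidative phosphorylation 54 were lower (median -0.06), 5 at an unadjusted p under 0.05. Among them Ndufa5 of complex I was at 544.2 ± 70.1 CPM in the 3 controls, with 424.2 ± 38.4 CPM in the 3 cKO samples (SD, n = 3). Of 77 mitochondrial ribosomal proteins 49 were lower (median -0.05), 3 at that p, led by Mrps28 with 22.44 ± 0.625 against 17.09 ± 2.05 CPM. Of 87 cytosolic ribosomal proteins 71 were lower (median -0.09), 8 at that p and 10 without overlap. Over all genes 2.77% were lower at that p and 4.88% without overlap, so the mitochondrial ribosomal proteins were close to the background. Rpl4 of the large subunit was at 801.9, 673.7 and 918.9 CPM across the controls and 626.8, 631.5 and 570.9 CPM across the cKO samples. Over all genes 49.1% were lower, with a median of 0.0.

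Genes of the synapse were mixed in direction. Among 31 genes of synaptic vesicles and release, 23 were higher and 8 lower (median 0.05), but the smallest p belonged to Vamp2 and Syp, both vesicle membrane proteins with lower means. Syp was at 114.5, 96.44 and 126.6 CPM among controls, against 87.69, 84.71 and 97.16 CPM among cKO samples, where cKO 64 just passed control 49. Rims1, an active zone scaffold, was higher (0.25 ± 0.11, SE). Among 30 postsynaptic scaffold and kinase genes, 4 had an unadjusted p under 0.05 and a lower mean and 1 a higher mean. Over all genes 2.77% were lower and 2.13% higher at that p. Of the 30 genes, 0 were lower without overlap and 3 higher (4.88% and 5.38% of all genes). Shank2 had the lowest p of the 4 lower ones, at 94.63 ± 22.5 CPM in the 3 controls, with 74.2 ± 5.13 CPM in the 3 cKO samples (SD, n = 3). Camk2a, whose promoter drives the Cre, was at 1862, 1354 and 1950 CPM across the controls and 1206, 1569 and 1372 CPM across the cKO samples. Control 49 lay among the cKO samples.

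Of 24 glutamate receptor subunits 15 were higher (median 0.08), 3 at an unadjusted p under 0.05 and 0 lower at that p. Over all genes 2.13% were higher and 2.77% lower at that p. With each sample left out the median ranged from 0.01 (without cKO 64) to 0.16 (without cKO 40). Grin1, the obligate subunit of NMDA receptors, was at 33.46, 28.13 and 28.14 CPM among controls, against 40.87, 34.69 and 46.77 CPM among cKO samples, without overlap. Grm7, a presynaptic metabotropic receptor, was at 26.33 ± 3.34 against 32.25 ± 2.38 CPM (SD, n = 3). Grik4, a kainate receptor subunit of CA3, was at 37.98 CPM in cKO 40, below all controls, and at 59.93 and 52.49 CPM in cKO 43 and 64. Of 14 GABA receptor subunits 8 were higher and none had an unadjusted p under 0.05. Among 58 potassium channel subunits 2 had one, both higher, a share close to the 2.13% of all genes. Without overlap 4 were lower and 3 higher (4.88% and 5.38% of all genes). Kcna1, a delayed rectifier of axons, had the lowest p, at 65.13 ± 3 CPM in the 3 controls, with 77.82 ± 0.888 CPM in the 3 cKO samples.

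Of the immediate early genes that neurons induce on firing, 30 of 43 were higher (median 0.10), with 4 higher and 1 lower at an unadjusted p under 0.05. Over all genes 2.13% were higher and 2.77% lower at that p. With each sample left out the median ranged from 0.04 (without control 41) to 0.13 (without control 49 or control 71). Btg2, an antiproliferative factor, was at 9.561, 14.44 and 11.85 CPM across the controls and 17.33, 18.05 and 19.85 CPM across the cKO samples. Its groups did not overlap. Arc, a regulator of AMPA receptor trafficking, was at 68.98, 113 and 97.39 CPM against 107.6, 109.6 and 147.7 CPM, so control 49 was within the cKO range. Dusp6, a phosphatase that limits ERK signalling, was the lower one, at 283.6 ± 17.7 CPM among controls, against 232.7 ± 35.7 CPM among cKO samples (SD, n = 3). Among 34 chaperone genes (median -0.01) 5 had an unadjusted p under 0.05, all lower (2.77% of all genes), led by Dnajb5 at 173.3 ± 14.6 against 140.5 ± 14.4 CPM.

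The 15 genes of lowest p among those higher in cKO had no DESeq2 call. Of these, DESeq2 gave an adjusted p only to Bok (0.0604), Ptgds (0.0604) and Pde10a (0.324). For the others the lack of a call carries no information. Bok, a BCL-2 relative abundant in CA3, was at 34.72, 40.08 and 41.77 CPM in the 3 controls, with 52.51, 54.42 and 52.3 CPM in the 3 cKO samples. All 3 cKO samples were above all controls, and the log2 fold change of 0.45 ± 0.10 (SE) ranged from 0.38 to 0.51 with each sample left out (edgeR adjusted p 0.582). Pde10a, a phosphodiesterase of cyclic nucleotides, was at 35.28, 36.28 and 34.9 CPM against 45.68, 46.56 and 43.71 CPM. Dopey1, linked to membrane traffic, was at 12.41, 14.55 and 13.29 CPM against 19.69, 19.07 and 20.62 CPM. In all 3 genes the gap between groups was wider than the range within either group.

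Ptgds, the prostaglandin D synthase of meninges, choroid plexus and oligodendrocytes, was at 304.5, 415.3 and 321.5 CPM across the controls and 433.4, 449.2 and 537.9 CPM across the cKO samples. Control 49 was the highest control and cKO 64 the highest cKO sample, the pair rich in choroid plexus RNA, whose part in this difference was not tested. Nectin3, a cell adhesion protein of hippocampal synapses, was at 25.05 ± 1.58 against 32.42 ± 2.22 CPM (SD, n = 3). Lipt1, a mitochondrial lipoyltransferase, was at 2.588 ± 0.174 against 4.956 ± 0.833 CPM. Aldh1l2, a mitochondrial folate enzyme, was at 1.294 ± 0.151 against 2.733 ± 0.12 CPM. Ifi27l2a, an interferon-inducible gene, was at 0.4432 to 0.6517 CPM among controls, against 2.8, 1.87 and 1.145 CPM among cKO samples. These last values rest on few reads. Cpeb1os1, Gm20696, Gm42484 and Gm17786 are predicted genes or pseudogenes and uncertain, and Gm17786 reached 11.11 CPM in cKO 40 alone, against 0.6517 to 1.718 CPM in the other 5.

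**Figure D3:**
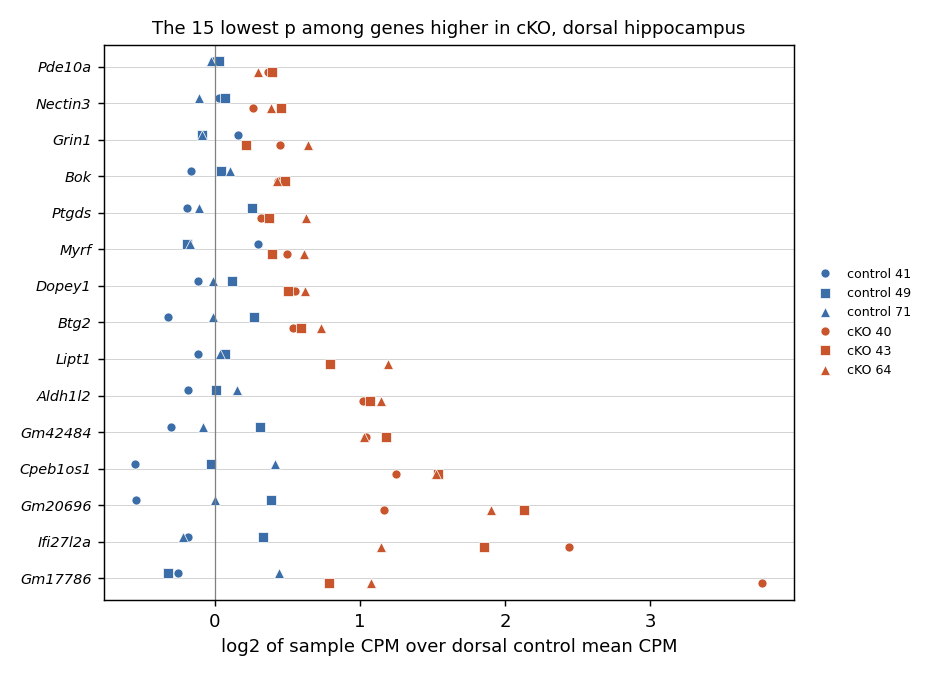
Level of the 15 genes of lowest edgeR p among those higher in cKO, in each dorsal sample, as log2 of its CPM over the mean CPM of the 3 controls (blue controls, orange cKO). All 15 have cKO samples above every control, and Gm17786 owes its largest value to cKO 40.

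Cell type markers differed from list to list. Of 20 interneuron markers 14 were lower and 6 higher (median -0.05), and 4 had an unadjusted p under 0.05, no overlap and a lower mean. Over all genes 2.77% were lower at that p and 4.88% without overlap. The mean over members overlapped, at 0.04, -0.08 and 0.04 in the controls and -0.07, -0.09 and -0.11 in the cKO samples (log2). Pvalb, the calcium-binding protein of fast-spiking interneurons, was at 124.3, 99.38 and 101.5 CPM in the 3 controls, with 84.54, 84.99 and 85.13 CPM in the 3 cKO samples. Lhx6, a transcription factor of the same lineage, was at 7.292 ± 0.128 against 4.799 ± 0.699 CPM (SD, n = 3), and Sst, encoding somatostatin, at 123.9 ± 9.75 against 105 ± 8.55 CPM. Gad1, which all GABAergic cells make, was at 118.1, 106.5 and 111 CPM against 110.4, 106.6 and 102.5 CPM, with overlap. Among 20 neuropeptides 4 were lower and 1 higher at an unadjusted p under 0.05 (2.77% and 2.13% of all genes). Without overlap 5 were lower and 1 higher (4.88% and 5.38% of all genes). Nts, encoding neurotensin, was at 24.68 ± 3.23 CPM across the controls and 17.34 ± 2.03 CPM across the cKO samples, and Scg2, a granin of dense core vesicles, at 424.4 ± 25.7 against 340.2 ± 26.9 CPM. The higher one, Adcyap1, which encodes PACAP, was at 5.729 ± 0.664 against 8.168 ± 0.867 CPM.

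Markers of CA2 and CA3 pyramidal cells held 4 higher and 1 lower of 14 at an unadjusted p under 0.05 (median 0.17), where 2.13% of all genes were higher and 2.77% lower. Beside Bok, the RNA-binding protein gene Elavl2 was higher, at 139.7, 129.9 and 137.5 CPM among controls, against 152.1, 173.7 and 150.2 CPM among cKO samples. Rgs14, a CA2 gene that restrains plasticity, was lower, at 176.8, 174.2 and 214.9 CPM against 156.6, 163 and 146.4 CPM. Both were free of overlap. Of 10 CA1 markers 8 were lower (median -0.16) and of 14 dentate granule markers 9 (median -0.17), with 1 member in each direction at an unadjusted p under 0.05 in both lists. With each sample left out the CA1 median ranged from -0.27 (without control 49) to -0.04 (without control 41). Its means over members overlapped, at 0.13, -0.11 and -0.02 in the controls and 0.02, -0.12 and -0.19 in the cKO samples (log2). The dentate median rests on cKO 40 and was 0.14 without it; the means over members were -0.17, -0.02 and 0.19 in the controls and -0.56, -0.04 and 0.19 in the cKO samples (log2). Dock10 of granule cells was higher, at 46.55 ± 0.533 against 56.05 ± 6.58 CPM (SD, n = 3), and Glis3 lower, at 6.24 ± 1.2 against 4.371 ± 0.535 CPM.

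Oligodendrocyte markers were higher in 18 of 20 (median 0.12), 3 at an unadjusted p under 0.05 (2.13% of all genes were higher at that p). Myrf, the transcription factor of myelin genes, was at 25.72, 18.35 and 18.61 CPM in the 3 controls, with 29.49, 27.49 and 32.07 CPM in the 3 cKO samples, without overlap. Opalin, a protein of the myelin membrane, was at 42.68, 43.77 and 33.79 CPM against 57.32, 50.96 and 42.57 CPM, where cKO 64 lay below control 49. By its mean over members the list was at -0.02, 0.02 and -0.01 in the controls and 0.26, 0.13 and 0.03 in the cKO samples on the log2 scale, without overlap but with cKO 64 next to the controls. The summed level overlapped, at 9107 to 9640 CPM and 8823 to 10830 CPM. Astrocyte and microglia markers had medians of -0.02 and -0.06. Neocortex markers, which can reach the sample from overlying tissue, summed to 870.9 to 907.2 CPM among controls, against 960 to 997.7 CPM among cKO samples (9 of 14 higher, 1 at an unadjusted p under 0.05, none at 0). The mean over members of the neocortex list overlapped between groups. It was -0.03, -0.03 and 0.06 in the controls and 0.04, 0.05 and 0.14 in the cKO samples (log2). The part of overlying tissue in the differences above was not tested.

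**Figure D4:**
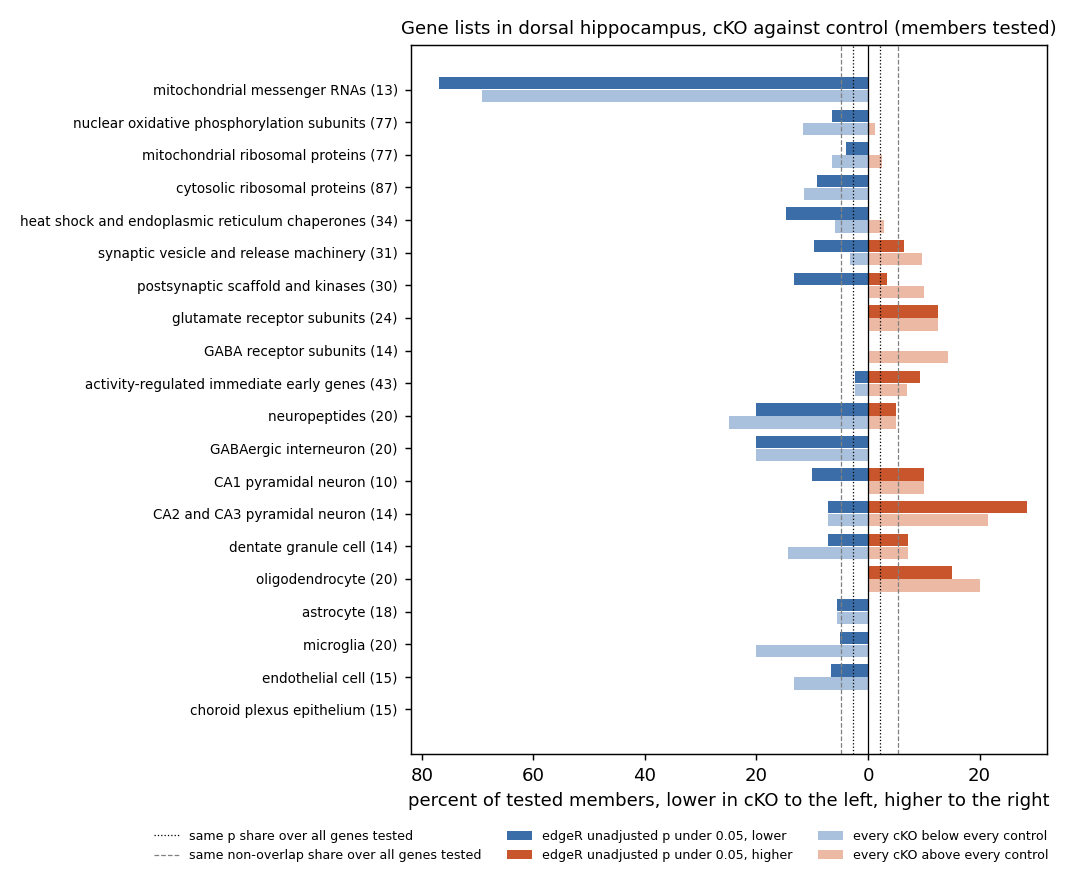
Percent of the tested members of 20 gene lists with an edgeR unadjusted p under 0.05 (dark bars) or with groups that do not overlap (light bars), lower in cKO to the left and higher to the right. Dotted lines mark the shares of all genes at that p, 2.77% lower and 2.13% higher, and dashed lines those without overlap, 4.88% and 5.38%; the mitochondrial messenger RNAs reach 10 of 13, and the choroid plexus markers 0 of 15.

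The ventral hippocampus gave the dorsal genes the opposite sign. Of the 22 genes, 22 had a higher fitted level in ventral cKO than in ventral control samples (50.0% of the 14920 genes tested in both regions did), with a median log2 fold change of 0.24, and 9 had a ventral unadjusted p under 0.05 (3.83% of all genes were higher at that p). The ventral libraries did not enter the choice of these genes, but 4 numbers in the titles (40, 41, 49 and 64) occur in both regions, and the genes vary together. Lrpprc was at 218.7, 206 and 209.1 CPM in ventral controls 41, 49 and 50 and at 223, 304.3 and 224.4 CPM in ventral cKO 40, 63 and 64. Mt3 was at 114.5, 147.7 and 95.58 CPM against 203.8, 176.6 and 143.3 CPM. Mcam was at 24.42, 17.06 and 6.215 CPM against 53.67, 29.94 and 33.55 CPM, with ventral control 50 far below the rest.

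As a mean over the 22 genes, the ventral controls lay at -0.49, -0.47 and -0.86 and the ventral cKO samples at -0.16, -0.11 and -0.41. The dorsal cKO samples lay at -0.54 to -0.44. Levels were scaled separately within each region, so these means cannot be compared between dorsal and ventral samples. Choroid plexus markers moved with the ventral contrast: Ttr in ventral controls 41, 49 and 50 measured 2937, 3352 and 2334 CPM, against 59.33, 1864 and 40.74 CPM for ventral cKO 40, 63 and 64. The mean over 15 markers was 2.19, 2.09 and 1.62 against -1.08, 1.54 and -1.51 on the log2 scale. Ventral cKO 63, rich in this RNA like the controls, had the highest mean over the 22 genes among ventral samples. The part of choroid plexus RNA in the opposite signs was not tested. The test of the difference between the regions' effects called 0 of 16414 genes (edgeR's quasi-likelihood test, percent called 0.0, lowest adjusted p 0.125). At an unadjusted p under 0.05 it held 1307 genes (7.96%), and DESeq2 called 34 (1.41% of those it gave an adjusted p). Its lowest p belonged to Cadm4, an axonal and glial adhesion gene, with a dorsal minus ventral difference of -0.91 ± 0.14 (SE). Pid1, an adaptor of lipoprotein receptors, was also among the 5 of lowest p, at -1.19 ± 0.24. Pid1 was at 92.99, 76.46 and 128.6 CPM in the dorsal controls, all above the 72.02, 56.1 and 52.87 CPM of the dorsal cKO samples. Among genes with a dorsal unadjusted p under 0.05 that were tested in both regions, 79.5% of the 424 lower in dorsal cKO were higher in ventral cKO, and 44.8% of the 317 higher in dorsal cKO.

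**Figure D5:**
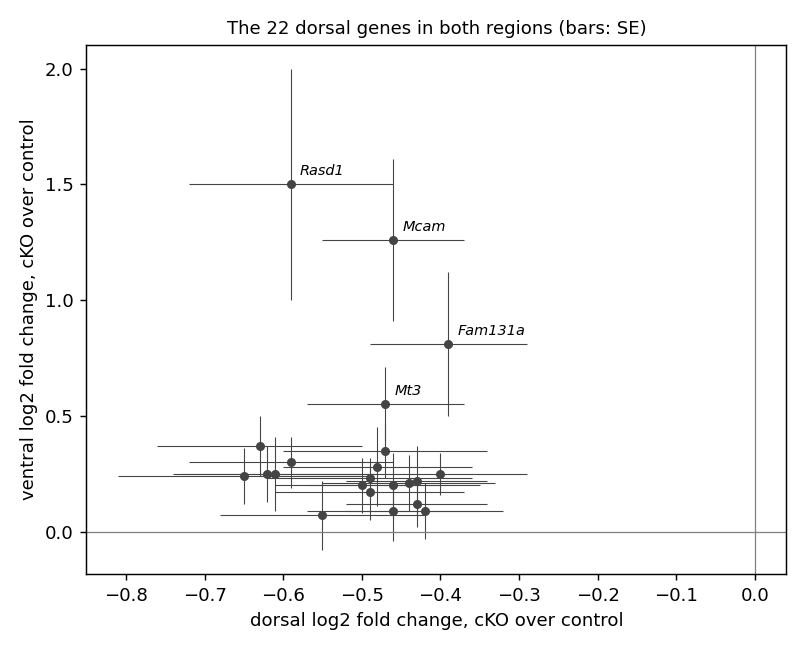
Dorsal (horizontal) and ventral (vertical) log2 fold changes, cKO over control, of the 22 genes, with the SE of each as bars. All 22 points lie at a negative dorsal and a positive ventral value, Rasd1 highest at 1.5.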

How the data were processed

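RNA from macrodissected mouse hippocampus was made into QuantSeq 3′ mRNA libraries from 500 ng of total RNA, per the labels' protocols. Per the submitters' processing notes, reads were processed with cutadapt, HISAT2, featureCounts and edgeR on GRCm38. Tool versions, the gene models and whether counting used strand are not given in the sources used here. Antisense and overlapping genes (mt-Nd6 lies opposite mt-Nd5) may therefore share reads. The authors deposited whole-number counts per gene and run. Their scaled values (35 columns) and their own test columns were not used.

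Counts were summed over the runs of a sample (17 dorsal runs for 6 samples). Pairs of samples of one group differed by more than sampling noise (chi-square per gene 4.03 to 9.68). Runs of one sample gave 1.34 to 4.81, which overlaps with the lowest sample pair. This value grows with depth, and a single run is shallower than its summed sample, so the ranges are not directly comparable. Genes were kept with filterByExpr and tested with edgeR 4.0.16 in R 4.3.3 (TMM, glmQLFit, glmQLFTest, Benjamini-Hochberg, threshold 0.05), with DESeq2 1.42.0 and limma 3.58.1 as alternatives. edgeR's common biological coefficient of variation was 0.111 and the log2 fold changes had a median SE of 0.151. An exact permutation test of 3 against 3 samples has a smallest p of 0.1, so none was used. The region difference was fitted over all 12 samples. The calling code was first run on simulated counts with the same dispersion (0.0122) for every gene. Such counts lack the shared variation between samples described above, so that run says nothing about error rates in these data. Levels are TMM-scaled CPM, scaled separately within each region, and mean levels over a list use a pseudocount of 0.5 CPM. Settings were scaling, low-count filters (none, or a mean of at least 10 counts), runs, and each sample left out.

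The comparison, the 44 gene lists and the rule for named genes were chosen with earlier results of these data known. The rule takes Tet1 to Tet3, the 15 lowest p in each direction, all DESeq2 calls, the 3 lowest p of each list described and the 5 lowest p of the region difference. A gene it picks is not reported here. Ttr, Igha, Slc17a7, Gad1, Mbp and the other mitochondrial transcripts were chosen after their values were seen, as were the genes named under other observations. Coordinates are from GENCODE M21 (99.83% of identifiers matched), and start windows from RefSeq.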

Additional observations from a re-analysis of the deposited data

How the results depend on the processing

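Calls depended on the tool and on single samples. The dorsal count of called genes was 0 in the chosen fit and 22 with DESeq2, 94 with no filter on low counts, 1 with run 1 alone, 10 without control 49 and cKO 64, and 30 with DESeq2 without both (chosen after seeing the data); with each sample left out it ranged from 0 to 25, the highest without control 49. The count at an unadjusted p under 0.05 was 769, against 493 with DESeq2, 1373 with no filter and 430 with DESeq2 without control 49 and cKO 64, and 464 to 1278 with each sample left out (lowest without control 71, highest without control 49). The count for the region difference was 0, against 34 with DESeq2 and 265 with no filter, and 0 to 4 with each sample left out: 4 without dorsal cKO 40, 3 without ventral control 41 and 1 without dorsal cKO 64. The cause of these shifts was not tested.

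Of 113 named genes, 109 kept the sign of their log2 fold change under every one of the 19 dorsal alternatives that gave them a value (82 genes had a value under all 19, and the others had none under some). Most were picked for a low p in this contrast and the alternatives reuse its samples, so the kept signs support nothing. Over all genes 8169 of 15692 kept their sign with each sample left out. The sign turned for Tet1 (-0.07 with run 2 alone), Tet2 (0.13 with run 1 alone, 0.06 with runs 1 and 3 summed), Tet3 (-0.02 with run 2 alone) and mt-Co3 (0.01 with run 3 alone, 0.02 with runs 1 and 3 summed). Genes at a few CPM rest on few reads per sample, and for them depth limits what could be detected. The dorsal groups share no number in the titles, so no paired analysis was possible there. For the region difference, limma-voom with the number as a block (consensus correlation 0.0583) called 0 genes, as did limma-voom without it.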

Other observations

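Some transcripts of single dorsal libraries belong to no comparison above. The pseudogene Gm10925 on chromosome 1 is identical to mt-Atp6 in 678 of 678 aligned bases of the GENCODE transcripts. A read that lies within those bases cannot be assigned to either gene by its sequence alone. In cKO 64 Gm10925 reached 327.2 CPM and in control 71 it reached 72.35 CPM, against 11.04 to 15.15 CPM in the other 4 dorsal samples. Its high counts lay in single runs: 438.2 CPM in run 3 of cKO 64 against 20.55 CPM in its run 1, and 124.6 CPM in run 2 of control 71 against 25.32 and 10.31 CPM in its runs 1 and 3. The counts of mt-Atp6 did not rise there, at 34.27 CPM in run 3 of cKO 64 and 133 CPM in run 2 of control 71. In the other dorsal samples mt-Atp6 was at 25.81 to 44.84 CPM in run 3 and 105.8 to 151.7 CPM in run 2. Gm13340, among the lowest p of the dorsal comparison, is identical to mt-Co1 over 97.61% of 1545 aligned bases, so its reads are uncertain too. The pseudogene Tmem181b-ps was at 22.05 CPM in control 71 and at 0 to 0.2995 CPM in the other 11 samples of both regions, and in control 71 it was present in all 3 runs.

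Transcripts of sperm cell maturation were found in single samples of both regions. Tnp1, which encodes a transition protein of spermatids, was at 7.603 CPM in dorsal control 49 and 0 to 0.9626 CPM in the other 5 dorsal samples. In the ventral hippocampus it was at 8.811 and 21.63 CPM in controls 49 and 50 and 4.415 CPM in cKO 63, and 0 to 1.22 CPM in the other 3. Prm1, a protamine gene, was high in the same 4 libraries, from 3.863 to 16.78 CPM. These are also libraries with much choroid plexus RNA, but dorsal cKO 64, with Ttr at 1940 CPM, had Tnp1 at 0.5726 CPM, and ventral control 41, with Ttr at 2937 CPM, had it at 0.7592 CPM.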
